A study of Mus musculus with 61 samples.

Results

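The genes described are the mouse zinc finger genes with a Zfp number that lie on chromosome 7 or 13. They were taken by symbol and chromosome from the deposited gene annotation, which gave 125 genes (87 on chromosome 7 and 38 on chromosome 13) of 21169 genes in the table. The libraries are RNA-seq of adipose tissue from mice of 8 inbred strains, all placed on a diet high in fat and sugar that the labels give as 45 percent fat. No library came from another diet. There were 7 libraries each of 129, AJ and Cast, and 8 each of B6, NOD, NZO, PWK and WSB, 61 in all. The labels give no sex, age or fat depot, and do not say whether libraries of 1 strain came from separate litters, so p-values measure the spread between these libraries. Xist, the transcript that silences an X chromosome in females, was over 50 CPM in some libraries of every strain and low in the rest.

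C2H2 zinc finger proteins bind DNA through repeated fingers, each folded around a zinc ion held by a pair of cysteines and a pair of histidines. Many also carry a KRAB domain, which recruits the corepressor Trim28 and through it the histone methyltransferase Setdb1. KRAB zinc finger genes sit in tandem clusters that grow by duplication, differ between species and strains, and are best known for silencing transposable elements. Several clusters of this kind lie on mouse chromosomes 7 and 13.

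Of the 125 genes, 121 were protein coding in GENCODE M21, 3 were transcribed pseudogenes and 1 was a processed transcript. The coding sequence of 78 held a KRAB pattern. The coding genes held a median of 12 C2H2 finger patterns, with a range of 0 to 33. The gene with 33 was Zfp619. Zfp36 holds none, because it encodes tristetraprolin, a CCCH finger protein that binds and destabilises AU-rich messenger RNAs and shares only its name with the others.

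The repeat that the family is built on shows in a finger with its linker from each of 5 members described below. It also shows why reads of neighbouring members can be hard to place. Each is the first finger to match a strict pattern with fixed spacing and the linker TGEKP or TGERP. It need not be the first finger of its protein. In Zfp738 it starts at coding base 613 of 2379, in Zfp729a at 613 of 2919 and in Zfp429 at 949 of 1455. In Zfp607 it starts at 1867 of 2058, and in Zfp14 at 424 of 1503. Each line gives the coding strand of GENCODE M21 on GRCm38, with the codons of the zinc-binding cysteines and histidines in capitals. The stretches are chr13:67671175-67671258 (minus strand) for Zfp738, chr13:67621413-67621496 (minus) for Zfp729a, chr13:67390292-67390375 (minus) for Zfp429, chr7:27879373-27879456 (plus) for Zfp607 and chr7:30039052-30039135 (minus) for Zfp14.
Zfp738: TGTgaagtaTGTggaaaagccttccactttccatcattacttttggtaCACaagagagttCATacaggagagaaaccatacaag
Zfp729a: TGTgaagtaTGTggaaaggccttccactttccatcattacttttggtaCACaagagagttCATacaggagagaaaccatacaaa
Zfp429: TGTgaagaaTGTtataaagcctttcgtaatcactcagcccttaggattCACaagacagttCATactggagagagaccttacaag
Zfp607: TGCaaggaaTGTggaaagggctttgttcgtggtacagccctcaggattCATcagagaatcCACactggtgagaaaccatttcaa
Zfp14: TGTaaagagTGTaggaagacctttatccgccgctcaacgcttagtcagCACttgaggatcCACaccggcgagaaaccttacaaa
The stretches of Zfp738 and Zfp729a differed at 2 of 84 bases, A18G and G84A, counted from 1 at the first base shown with the base of Zfp738 first. Zfp738 and Zfp429 differed at 22 of the 84 bases, and Zfp738 and Zfp607 at 35. Those comparisons set fingers from unlike places in the proteins side by side. The longest coding run that Zfp738 and Zfp729a share without a difference was 298 bases, at chr13:67670793-67671090 in Zfp738 and chr13:67621031-67621328 in Zfp729a, both on the minus strand. It is given because reads that fall within it match both genes.
Zfp738 and Zfp729a shared run: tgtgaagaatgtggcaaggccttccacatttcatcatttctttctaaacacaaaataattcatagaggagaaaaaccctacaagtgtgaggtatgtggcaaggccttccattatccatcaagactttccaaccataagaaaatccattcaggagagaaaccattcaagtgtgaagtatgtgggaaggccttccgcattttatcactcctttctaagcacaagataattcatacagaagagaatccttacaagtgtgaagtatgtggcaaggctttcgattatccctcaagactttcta

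The deposited values are estimated counts, and a count that is not whole shows that reads were divided between genes. In 33 of the 125 genes (26.4%), against 22.1% of all genes tested, the count was not whole in over 50% of libraries; these are called flagged below. Flagged genes shared a median of 25.04% of their 50-base exon words with another gene, and unflagged genes 0.707%. On chromosome 13, 16 genes were flagged, and on chromosome 7, 17. For 13 genes the count was fractional in all 61 libraries, and for 67 it was whole in all of them. Zfp729a, Zfp738, Zfp429 and Zfp607 are flagged. Zfp935 is not, although 100% of its words lie in a second annotated gene, Gm49359. By protein the closest pair was Zfp874b and Zfp874a, identical over 93.1% of the longer protein, followed by Zfp273 with Zfp85 at 90.2% and Zfp455 with Zfp456 at 90.02%.

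**Figure D1:**
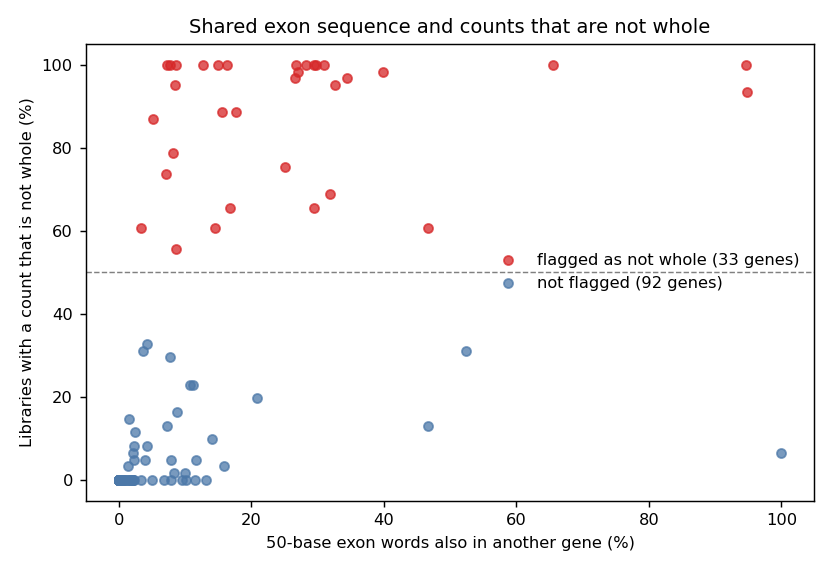
Share of 50-base exon words that another gene also holds (x axis, %) against the share of the 61 libraries in which the estimated count was not whole (y axis, %), 1 point per gene; red points are the 33 flagged genes and blue points the 92 others, and the dashed line marks 50%. Red points spread over x from a few percent to 94.9%, while most blue points sit near the origin; the blue point at 100% on the x axis is Zfp935.

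Total counts ran from 19851580 to 61277576 per library. Levels are given as CPM, counts scaled to library size. Summed adipocyte markers (7 genes, among them Adipoq and Plin1) had strain medians of 16150 CPM in NZO to 22536 CPM in WSB. Summed macrophage markers (5 genes) had a median of 3982 CPM in NZO, against medians of 597 to 988 CPM in the other strains. In 13 libraries transcripts of liver, genital duct or skeletal muscle were high, and results that move without them are named. Of the 10 genital duct genes listed, 1 was in the table, Crisp1. In bulk tissue, fewer cells of a type and less RNA per cell cannot be told apart.

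Across the 125 genes the mean level was highest in Zfp36 at 105 CPM, or 30.3 CPM per kilobase of exon. Next per kilobase came Zfp110 at 9.15, Zfp146 at 7.90 and Zfp260 at 7.50 CPM per kilobase. Zfp110 encodes a protein that binds the p75 neurotrophin receptor in mouse. The lowest mean level was that of the pseudogene Zfp389, 0.164 CPM. All 125 genes passed the filter on low counts and were tested.

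By share of variance, strain accounted for much of the spread of these genes, to about the same extent as for other genes. In size the strains differed less in these genes. The median range of strain levels was 0.733 on the log2 scale, against 1.13 for all genes. It was 0.693 for the tested Zfp genes of other chromosomes. In the F-test over the 8 strains (edgeR quasi-likelihood, adjusted p under 0.05), 112 of the 125 (89.6%) were called, against 89.9% of the 18603 genes tested. The median share of variance in log2 CPM that lay between strains was 47.9% for the 125 genes, 50.04% for the 232 tested Zfp genes of other chromosomes and 48.7% for all genes. Over 80% of variance lay between strains in 11 of the 125 (8.8%), against 6.43% of all genes. Those 11 were Zfp738 (99.3%), Zfp429 (98.3%), Zfp607 (97.7%), Zfp14 (91.5%), Zfp619 (87.7%), Zfp59 (87.1%), Zfp658 (84.6%), Zfp729a (82.9%), Zfp28 (81.8%), Zfp444 (81.3%) and Zfp457 (80.3%). KRAB genes had a median of 50.8% (n = 78) and coding genes without the pattern 44.5% (n = 43). Over the 121 coding genes, Spearman's rho of finger number with this share was 0.18, a description across genes that share clusters and sequence. The 13 genes not called included Zfp729b, at 11.1% the flattest of the chromosome 13 run described below, and Zfp366, which encodes a corepressor of dendritic cells.

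**Figure D2:**
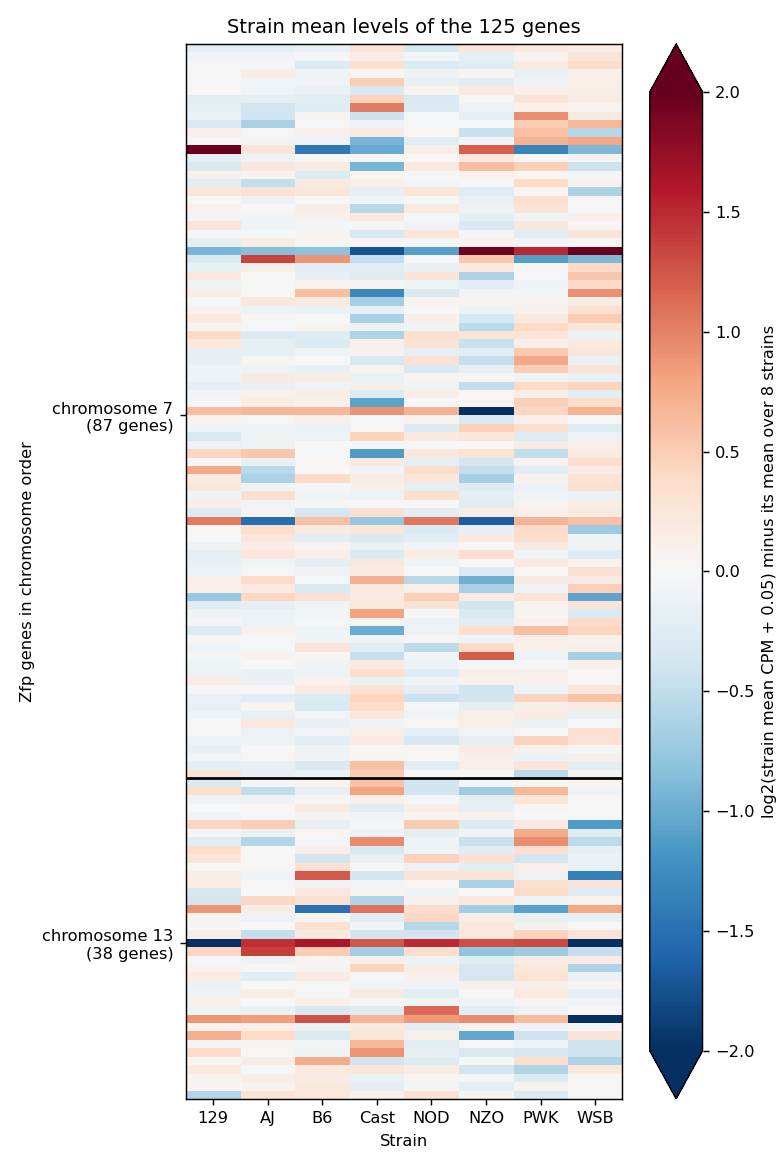
Strain mean levels of the 125 genes, 1 row per gene in chromosome order (chromosome 7 above the line, chromosome 13 below) and 1 column per strain; colour is log2(strain mean CPM + 0.05) minus its mean over the 8 strains, red higher and blue lower, cut at 2. Most rows are pale, and the dark rows are single genes such as Zfp607 (blue in NZO), Zfp429 (blue in 129 and WSB) and Zfp738 (blue in WSB); the dark row red in NZO, PWK and WSB is Zfp541.

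In 3 protein coding members almost no counts were assigned in whole strains, while other strains had an ordinary level. All 3 are flagged. The processing notes name the build GRCm38 for all strains. Whether reads of the low strains were lost or placed elsewhere was not tested. Zfp738, a KRAB gene with 20 finger patterns, had 1 count over the 8 WSB libraries, where its lowest, median and highest levels were 0, 0 and 0.0213 CPM. The lowest, median and highest levels were 4.84, 6.84 and 7.59 CPM in 129, 5.43, 5.85 and 8.27 CPM in AJ, and 6.99, 8.86 and 10.4 CPM in B6. They were 3.93, 6.08 and 6.93 CPM in Cast, 5.5, 6.51 and 7.84 CPM in NOD, 5.57, 6.70 and 8.63 CPM in NZO, and 3.96, 5.59 and 6.31 CPM in PWK. No WSB library overlapped any library of another strain, while among the other strains all B6 libraries lay above all libraries of Cast and PWK. From 1 count the pooled WSB level was 1817-fold lower than the mean of the other strains, with a 95% counting interval of 326 to 71755. Counts of this and the other near-zero genes are rounded estimates, and counting intervals cover counting error only. Zfp738 was singled out for this pattern with earlier results known, so no test is given for it. The annotated antisense gene Gm26587, which overlaps exons of Zfp738, was at 0 in WSB and at 0.601 to 1.35 CPM in the other strains, and counting by strand is not given in the sources used here, so reads of these genes cannot be told apart. The nearest members on either side were not low in WSB, where Zfp729a, 29.6 kb away, averaged 13.5 CPM and Zfp65, 18.2 kb away, averaged 10.04 CPM, against 10.7 to 29.5 CPM for Zfp729a and 9.07 to 11.8 CPM for Zfp65 in the other strains.

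Zfp429, a flagged KRAB gene whose exon words are shared mainly with Rsl1, a repressor of sex-limited liver genes in mice, was near zero in 2 strains. Its lowest, median and highest levels were 0, 0.0239 and 0.0579 CPM in 129 and 0, 0 and 0.0639 CPM in WSB. That amounts to 6 counts over 7 libraries of 129 and 3 counts over 8 of WSB. In the other 6 strains means ran from 2.79 ± 0.996 CPM in Cast (SD, n = 7) to 3.69 ± 0.496 CPM in B6 (SD, n = 8), with single libraries from 1.5 to 4.47 CPM. No library of 129 or WSB overlapped a library of those 6 strains. The pooled 129 level was 125-fold lower than the mean of the other 7 strains (95% counting interval 57.4 to 341), and that of WSB 247-fold lower (84.4 to 1196). Each of those means includes the other of the 2 low strains. Zfp619, a chromosome 7 KRAB gene, was low in the same 2 strains without being near zero. Its lowest, median and highest levels were 1.39, 1.58 and 1.89 CPM in 129 and 0.951, 1.32 and 1.73 CPM in WSB, against means of 3.10 to 3.86 CPM in the other 6 strains and a lowest library there of 2.09 CPM. The nearest members of Zfp429 were present in both strains, since Zfp456 averaged 2.25 CPM in 129 and 2.54 CPM in WSB, and Zfp874a 14.0 CPM in 129 and 15.9 CPM in WSB.

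Zfp607, a KRAB gene of chromosome 7 with 18 finger patterns, was near zero in NZO alone among the 8 strains. NZO libraries had lowest, median and highest levels of 0, 0.0413 and 0.115 CPM, from 15 counts over 8 libraries. Strain means elsewhere ran from 3.18 ± 0.620 CPM in PWK (SD, n = 8) to 4.43 ± 1.39 CPM in Cast (SD, n = 7), with a lowest library of 2.10 CPM. The groups did not overlap, and the pooled NZO level was 87.0-fold lower than the mean of the others (95% counting interval 52.7 to 155). The log2 fold change was -6.31 (SE 0.24, edgeR adjusted p = 8.32e-30). The antisense-strand gene RP23-73F23.5, 1.9 kb away, was also low in NZO, with a mean of 0.011 CPM, and its other strain means ran from 0.374 to 1.20 CPM. Zfp59, 1.1 kb away on the other side, averaged 4.93 CPM in NZO, against 2.29 to 6.74 CPM in the other strains.

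Zfp264, annotated as a transcribed pseudogene of chromosome 7, showed the opposite arrangement. Its lowest, median and highest levels were 0.814, 1.12 and 1.66 CPM in 129, above every other library. NZO followed with 0.0292, 0.208 and 0.667 CPM, and AJ and NOD were uneven, with highest libraries of 0.446 and 0.266 CPM and lowest libraries of 0. In B6, Cast, PWK and WSB the sums were 1, 5, 2 and 4 counts over all libraries of the strain. The level averaged 1.18 ± 0.284 CPM in 129 (SD, n = 7), against 0.0804 CPM as the mean of the other strains. The fitted log2 fold change of 129 against the others was 5.0 (SE 0.45, edgeR adjusted p = 2.06e-13); it depends on strains with almost no counts and is no bound.

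Zfp14, an unflagged KRAB gene with no exon words shared with another gene, fell into 2 sets of strains. Its lowest, median and highest levels were 0.928, 1.92 and 2.25 CPM in AJ, 1.38, 1.68 and 2.07 CPM in NZO, and 1.48, 2.41 and 5.83 CPM in Cast. In 129 they were 9.14, 11.5 and 12.7 CPM, in NOD 8.57, 11.8 and 13.1 CPM, and in B6 6.63, 8.11 and 10.1 CPM. In PWK they were 7.24, 8.38 and 11.2 CPM, and in WSB 5.82, 8.39 and 10.4 CPM. All AJ and NZO libraries lay below all libraries of 129, B6, NOD, PWK and WSB, while the highest Cast library reached the lowest of WSB. The log2 fold change was -1.77 in AJ (SE 0.16, adjusted p = 4.95e-13) and -1.92 in NZO (SE 0.16, adjusted p = 8.43e-16). Its neighbour Zfp568, which represses a placental Igf2 transcript in the mouse embryo, was not low in these strains, at 14.0 CPM in AJ and 14.8 CPM in NZO, against strain means of 10.6 to 16.7 CPM in the others.

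Zfp729a, the neighbour of Zfp738, was high in NOD. In NOD the lowest, median and highest levels were 25.6, 29.7 and 32.5 CPM, against means of 10.7 to 13.5 CPM in the other 7 strains, where no library passed 16.8 CPM. The log2 fold change was 1.30 (SE 0.07, adjusted p = 1.73e-21). Its counts were fractional in all 61 libraries, and its near copy Zfp729b averaged 11.2 CPM in NOD, against 11.2 to 12.7 CPM in the other strains.

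**Figure D3:**
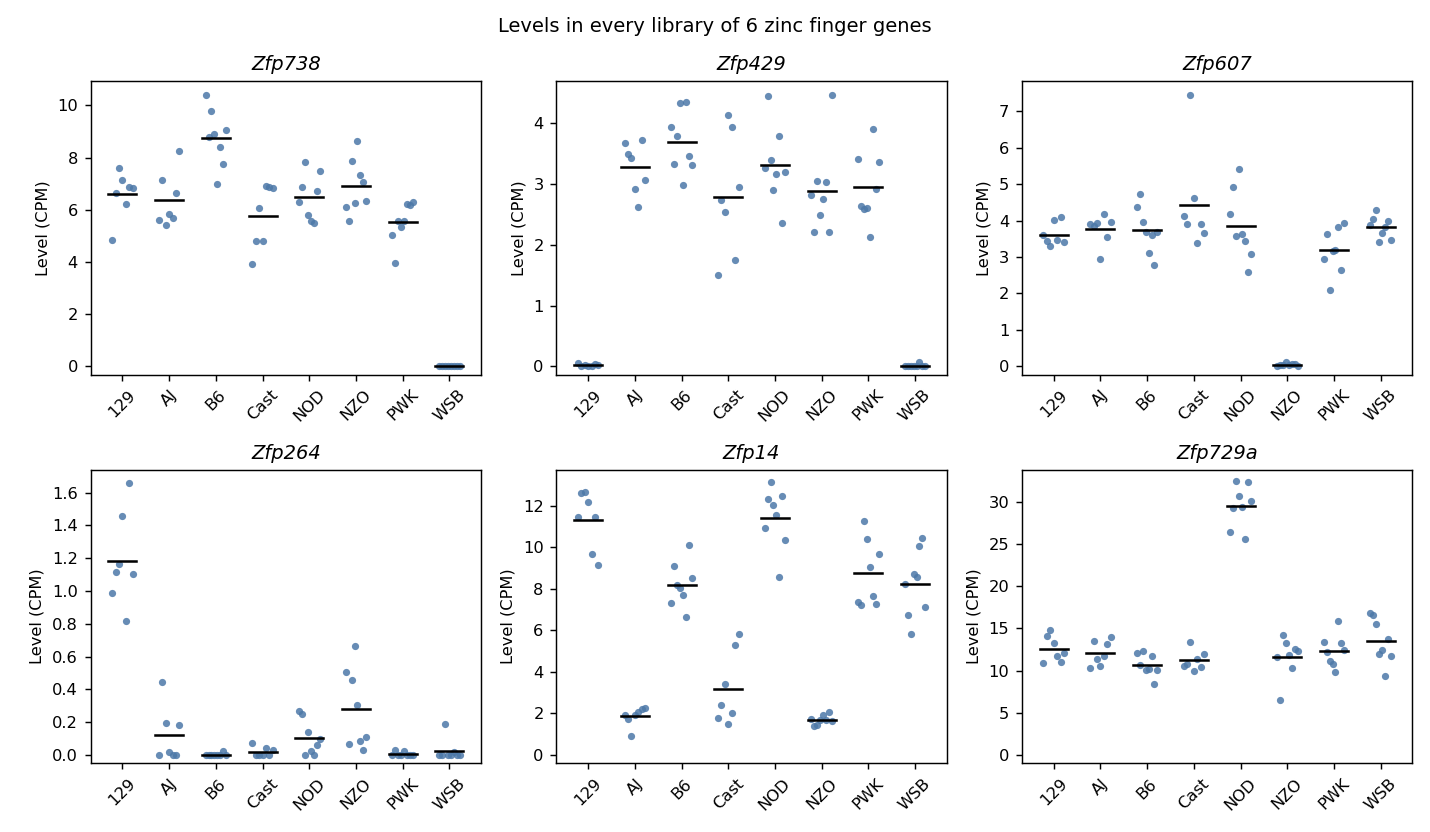
Level in CPM (y axis, linear, 1 panel per gene) in every library of the 8 strains (x axis); points are libraries and bars strain means. Zfp738 is at the floor in WSB, Zfp429 in 129 and WSB and Zfp607 in NZO; Zfp264 is above 0.8 CPM only in 129, Zfp14 is low in AJ, Cast and NZO, and Zfp729a is above 25 CPM only in NOD.

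The chromosome 13 genes include the longest run of members, 24 genes within 788 kb from Zfp712 to Zfp273 (chr13:67038594-67827002). Of these 24, 22 held a KRAB pattern, 13 were flagged and 21 were called by the F-test, against the 89.9% of all genes given above. The share of variance between strains in the run reached from 11.1% in Zfp729b to 99.3% in Zfp738, 29.6 kb from Zfp729a. Members of a run did not follow one another closely: the median Pearson correlation of the 8 strain means was 0.11 over 642 pairs of genes within runs of 3 or more, 0.16 over the 92 adjacent pairs and 0.02 over the 7108 other pairs. These are descriptions over strain means that all members share.

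Zfp457 of this run is unflagged and was low in B6, NZO and PWK. Its lowest, median and highest levels were 0.299, 0.443 and 0.651 CPM in B6, 0.351, 0.561 and 1.14 CPM in PWK, and 0.465, 0.804 and 1.32 CPM in NZO. The means of 129, AJ, Cast, NOD and WSB ran from 1.54 ± 0.481 CPM in AJ (SD, n = 7) to 2.98 ± 1.26 CPM in Cast (SD, n = 7). The B6 libraries lay below every library of those 5 strains. The log2 fold change was -1.79 in B6 (SE 0.22, adjusted p = 4.21e-09) and -1.29 in PWK (SE 0.21, adjusted p = 1.49e-06).

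**Figure D4:**
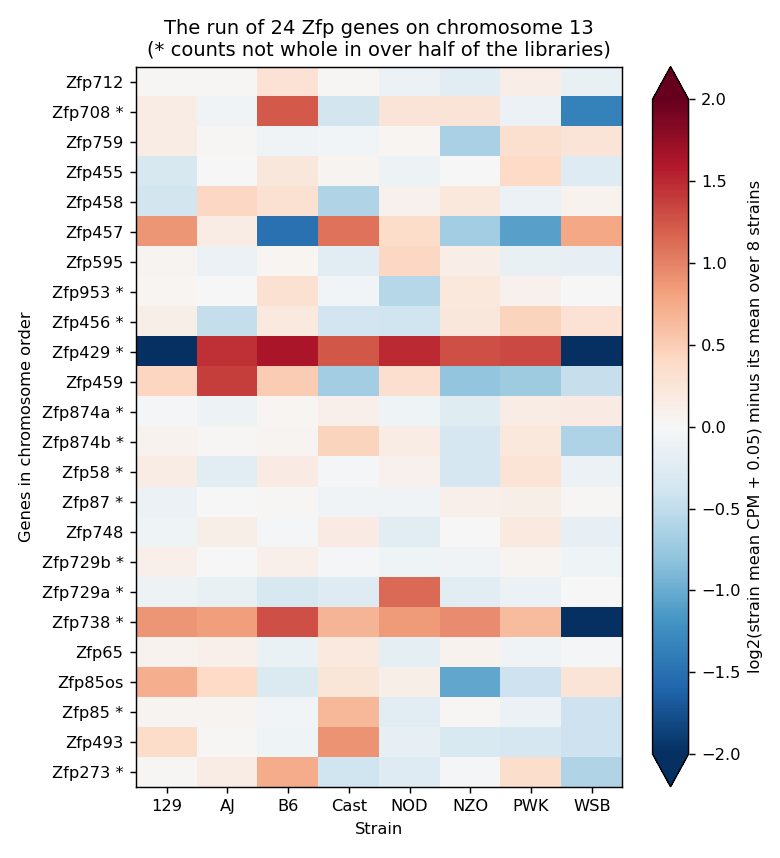
The 24 genes of the chromosome 13 run in chromosome order (rows) by strain (columns); colour is log2(strain mean CPM + 0.05) minus its mean over the 8 strains, and an asterisk marks flagged genes. The rows of Zfp429, Zfp457, Zfp729a and Zfp738 differ from the pale rows beside them.

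Each strain was then compared with the unweighted mean of the other 7. The 8 comparisons share libraries, so their results are set side by side only. The mean of the others is taken on the log scale, so a strain near zero lowers it, and a strain with an ordinary level can then be called higher by construction. This touches Zfp738, Zfp429, Zfp607 and Zfp264, of which 3 were called higher in each strain other than WSB, and 1 in WSB. Zfp738 in PWK, for example, was called higher at a mean of 5.53 CPM, against 5.84 CPM in the others. Of the other 121 members, 38 were higher and 21 lower in WSB, 16 and 43 in NZO, 43 and 12 in PWK, and 31 and 29 in Cast. In the other strains 11 were higher and 11 lower in 129, 13 and 13 in AJ, 13 and 16 in B6, and 16 and 20 in NOD. Cast and PWK together against the other 6 strains had 41 higher and 26 lower. The counts that follow include the 4 genes. In WSB, 62 of the 125 genes were called (49.3% of all genes), with 39 higher and 23 lower, against 25.6% higher and 23.7% lower of all genes, but the chromosomes differed. On chromosome 7, 36 of 87 were higher (41.4%) and 11 lower (12.6%), while on chromosome 13, 3 of 38 were higher (7.89%) and 12 lower (31.6%). All tested genes of chromosome 7 were higher in 25.5% and lower in 21.96%, and those of chromosome 13 higher in 24.8% and lower in 23.0%. With the 92 unflagged genes alone, 30 were higher and 13 lower. Zfp28, a KRAB gene, averaged 14.8 ± 1.79 CPM in WSB (SD, n = 8), against 8.36 CPM in the others (log2 fold change 0.89, SE 0.09, adjusted p = 6.44e-12). Its level was not particular to WSB. Zfp28 averaged 13.8 CPM in PWK, where it was also called higher (log2 fold change 0.78, SE 0.09), and was lowest in Cast at 4.49 CPM. In the run of 14 genes from Zfp180 to Zfp526, 9 were higher and 1 lower in WSB. On chromosome 13, Zfp808, Zfp935 and Zfp934, a group of 3 neighbours, were all lower in WSB, with Zfp808 at 1.95 CPM against 4.97 CPM (log2 fold change -1.32, SE 0.20, adjusted p = 1.69e-07). Zfp808 and Zfp934 are flagged and share a coding run of 200 bases without a difference, so reads within it match both.

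In NZO, 63 of the 125 genes were called (53.9% of all genes), with 19 higher and 44 lower, against 27.2% higher and 26.6% lower of all genes. The members' shares were 15.2% and 35.2%. The Zfp genes of other chromosomes had 15.1% higher and 31.5% lower. Among KRAB genes 8 were higher and 31 lower, and among coding genes without the pattern 10 were higher and 11 lower. Beside these counts stand the macrophage marker sum of NZO given above, its summed dividing cell markers, with a median of 123 CPM against 7.05 to 53.2 CPM in the other strains, and its lymphocyte markers, at 215 CPM against 22.34 to 77.5 CPM. Their part in the counts was not tested. Zfp710 was the largest rise among the named genes of NZO after Zfp264, with a lowest, median and highest level of 34.1, 52.0 and 66.9 CPM, against means of 13.8 to 23.2 CPM in the other strains and a highest other library of 35.7 CPM. Its log2 fold change was 1.39 (SE 0.11, adjusted p = 8.82e-17).

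In PWK the balance ran the other way. There 59 of the 125 genes were called (43.6% of all genes), with 46 higher and 13 lower (36.8% and 10.4%), against 24.6% higher and 19.0% lower of all genes. The Zfp genes of other chromosomes had 34.1% higher and 15.1% lower. Zfp667, a KRAB gene, had lowest, median and highest levels of 8.52, 10.6 and 13.8 CPM in PWK, against means of 4.10 to 6.29 CPM in the other strains (log2 fold change 1.08, SE 0.10, adjusted p = 2.28e-13). Zfp935 was above all other libraries in PWK, at 5.17 to 7.63 CPM, against a highest library elsewhere of 5.13 CPM (log2 fold change 0.85, SE 0.10, adjusted p = 3.50e-10).

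In Cast, 63 genes were called (56.2% of all genes), with 34 higher and 29 lower, against 29.6% higher and 26.6% lower of all genes. Cast replicates 5 and 6 had adipocyte marker sums of 9980 and 12178 CPM and macrophage marker sums of 1155 and 1061 CPM. The other 5 Cast libraries had adipocyte sums of 17933 to 26639 CPM and macrophage sums of 497 to 814 CPM. Without those 2 libraries, an alternative chosen after seeing the data, 56 genes were called in Cast, 28 higher and 28 lower. The shares of all genes given here come from the fit with all libraries and are not the background of those counts. Genes whose libraries lay wholly outside the range of all other libraries numbered 5 of the 125 in Cast (1.37% of all genes), 1 in 129 (0.124%), 1 in NOD (0.151%), 1 in NZO (0.855%), 1 in PWK (0.903%), 1 in WSB (0.554%), 0 in AJ (0.167%), 0 in B6 (0.177%) and 0 in Cast and PWK together (0.559%). Zfp444 had lowest, median and highest levels of 8.94, 10.5 and 16.2 CPM in Cast, above a highest library of 7.38 CPM in the other strains (log2 fold change 1.20, SE 0.08, adjusted p = 1.33e-19). Zfp59 averaged 2.29 ± 0.339 CPM in Cast (SD, n = 7) and 5.42 CPM in the others (log2 fold change -1.23, SE 0.08, adjusted p = 1.73e-18). Zfp658 averaged 2.73 ± 0.270 CPM in Cast and 6.19 CPM in the others (log2 fold change -1.15, SE 0.10, adjusted p = 3.20e-15). Zfp111 at 5.05 CPM in Cast was below the others at 8.68 CPM, and Zfp141 at 15.1 CPM was above them at 8.05 CPM; these 2 were chosen after their values were seen. Zfp30, reported to affect adipogenesis in mouse cells, averaged 1.64 ± 0.492 CPM in Cast and 4.17 CPM in the others (log2 fold change -1.32, SE 0.14, adjusted p = 4.48e-12). It was also low in PWK at 2.57 CPM, and highest in AJ at 5.31 CPM.

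**Figure D5:**
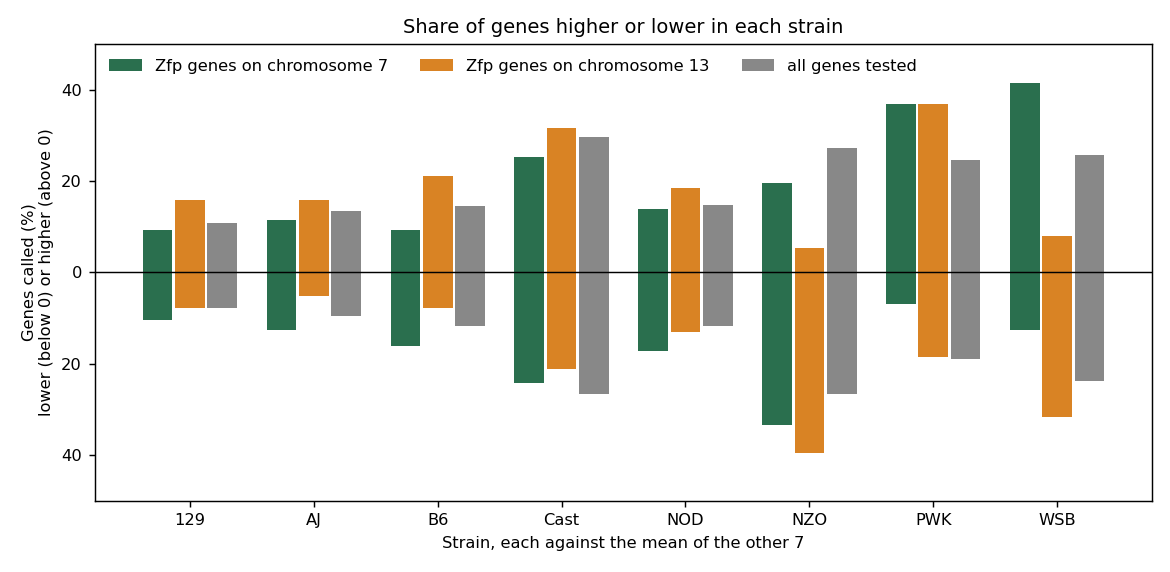
Share of genes called higher (above 0) or lower (below 0) in each strain against the mean of the other 7, in percent, for Zfp genes of chromosome 7 (green), Zfp genes of chromosome 13 (orange) and all genes tested (grey). In WSB the green bar stands at 41.4% higher and the orange bar at 31.6% lower; in NZO both lie mostly below 0, and in PWK both mostly above.

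In 129, 26 genes were called (18.6% of all genes), with 14 higher and 12 lower (all genes: 10.8% and 7.78%). Without the 13 libraries rich in other tissue the sum was 16 in place of 26. This left out 129 replicates 6, 7 and 9, its only libraries of low Xist (0.264 to 4.44 CPM). Other tissue, the Xist split and the smaller number of libraries cannot be told apart here. The 18.6% is not the background of the 16. Zfp131, which encodes a BTB domain protein, was lowest in 129, at 13.1, 15.5 and 17.0 CPM, against strain means of 18.8 to 28.02 CPM (log2 fold change -0.67, SE 0.08, adjusted p = 5.02e-10). In AJ 29 were called (23.0% of all genes), with 16 higher and 13 lower (all genes: 13.4% and 9.59%), and Zfp459 stood out at 1.38 ± 0.399 CPM (SD, n = 7), against 0.464 CPM in the others (log2 fold change 1.69, SE 0.23, adjusted p = 6.41e-08). In B6 33 were called (26.3% of all genes), with 16 higher and 17 lower (all genes: 14.6% and 11.7%). In NOD 39 were called (26.5% of all genes), with 19 higher and 20 lower (all genes: 14.7% and 11.8%). Cast and PWK, wild-derived strains of other house mouse subspecies than the remaining 6, were also compared with those 6 together. There 71 genes were called (59.4% of all genes), with 44 higher and 27 lower, against 32.0% and 27.4% of all genes. Zfp934 averaged 3.21 CPM in Cast and PWK and 1.33 CPM in the other 6 strains (log2 fold change 1.28, SE 0.12, adjusted p = 1.15e-13).

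The genes of the KRAB corepressor pathway were read from a list of 33 symbols, of which 31 were in the table and tested. By the F-test 29 of the 31 were called, against 89.9% of all genes. In NZO 14 were higher and 2 lower, in PWK 11 and 3, in WSB 7 and 9, and in Cast 8 and 8. In B6 3 were higher and 4 lower, in NOD 0 and 5, in AJ 2 and 2, and in 129 2 and 4. The shares of all genes given above for each strain are the background of these counts, among them 27.2% higher and 26.6% lower in NZO. Trim28, the corepressor that KRAB domains bind, had a log2 fold change of 0.06 in NZO (SE 0.05, adjusted p = 0.252). Setdb1, which writes the repressive histone mark, rose by 0.40 in NZO (SE 0.05, adjusted p = 3.21e-10) and had -0.61 in NOD (SE 0.05, adjusted p = 3.11e-14). The methylation factors Uhrf1 and Hells, which are high in dividing cells, rose in NZO by 1.96 (SE 0.19, adjusted p = 6.30e-13) and 1.59 (SE 0.14, adjusted p = 1.64e-14) on the log2 scale.

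By Pearson correlation of log2 CPM over the 61 libraries, the 5 genes most like Zfp738 were A530053G22Rik (0.97), Ly6c1 (0.96), Gm26587 (0.95), Zfp937 (0.94) and Gm10275 (0.94). These lie on chromosomes 6, 15, 13, 2 and 10. The points share libraries and strains, and the pattern is set by the 8 WSB libraries. Ly6c1 averaged 0.395 CPM in WSB, against 77.8 to 171 CPM in the other strains, and Zfp937, a further zinc finger gene, 0.768 CPM in WSB, against 3.46 to 4.90 CPM. Ly6c1, Zfp937 and Gm10275 are also flagged as having counts that are not whole.

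Zfp541, which acts in the meiosis of male germ cells, was called by the F-test (adjusted p = 6.56e-04), and the call rests on 4 libraries. Its level was 6.25 CPM in NZO replicate 4, 5.02 CPM in PWK replicate 5, 5.87 CPM in WSB replicate 7 and 1.30 CPM in WSB replicate 6, against at most 0.374 CPM in any other library. Those 4 libraries also had the highest summed germ cell markers, 16.4 to 97.3 CPM, against at most 4.0 CPM elsewhere. Xist was high in NZO replicate 4, at 704 CPM. It was low in PWK replicate 5, WSB replicate 7 and WSB replicate 6, at 0.264, 1.65 and 0.241 CPM. The source of the germ cell transcripts was not tested. The germ cell list was made after the levels of Zfp541 were seen, and 3 of its 10 genes are in the table. With the replicate block the adjusted p was 0.0505. Without the 4 libraries Zfp541 did not pass the filter on low counts, and 111 of the members were called. The share of all genes given above comes from the fit with all libraries and is not the background of that count.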

How the data were processed

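Gene counts of 61 adipose RNA-seq libraries were used. The authors deposited expected counts per gene, that is estimated counts that were not scaled, many of them not whole. They also deposited variance-stabilised log2 values scaled for library size, which served only for the limma alternative. DESeq2 and the build GRCm38 are named in the submitters' processing notes, and the aligner, the counting tool and strand setting are not given in the sources used here. Counts were rounded and tested with edgeR 4.0.16 (R 4.3.3; TMM scaling, filterByExpr by strain, robust quasi-likelihood fits, 2-sided, Benjamini-Hochberg over the 18603 genes tested, threshold 0.05). SE is the absolute log2 fold change over the square root of F. Contrasts were the F-test over 8 strains, each strain against the other strains averaged with equal weight, and Cast with PWK against the other 6. Variance shares used log2 CPM with a prior count of 2. A count was whole within 1e-06. Exon words, fingers and coding sequence came from GENCODE M21 (GRCm38), read with Biopython 1.88. All 125 members lie in it, 101 with the same start. Runs are members under 1 Mb apart. Counting intervals are exact Poisson at 95% and cover counting error only.

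On simulated counts of 18603 genes for the NZO contrast, 77% of genes changed by 1 and 45% of those changed by 0.5 on the log2 scale were recovered, and 3.17% of calls were false. There 100 genes were changed at each size, in NZO alone, and all others were equal over the strains. In the data 53.9% of genes were called in NZO, so these rates need not hold there. Members and lists were chosen with earlier results of these data known. Named genes were Zfp738, the 10 members with the largest variance share, the 3 largest changes each way per contrast among called members of at least 1 CPM in some strain whose libraries lay on 1 side of the median, members with at most 3 counts per library in a strain, the 5 highest and 5 flattest members and the 5 most identical protein pairs. Alternatives were other size factors, no filter, DESeq2 1.42.0, limma 3.58.1, a replicate block, Xist as a covariate, libraries left out, whole counts only and a minimum change.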

Additional observations from a re-analysis of the deposited data

Results flagged for a closer look

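Within-strain groups of 7 or 8 libraries of 31 named members were searched for a highest or lowest library that stood apart by Dixon's criterion. Chance flags about 1 in 20 groups, or 12 of the 240 groups searched. In 20 groups a library stood apart, and some libraries did so for more than 1 member.

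Of these, 5 concerned Zfp541: NZO replicate 4 at 6.25 CPM, PWK replicate 5 at 5.02 CPM, WSB replicate 7 at 5.87 CPM, B6 replicate 7 at 0.374 CPM and NOD replicate 6 at 0.284 CPM. The first 3 also had germ cell markers over 10 CPM, and the part of those markers was not tested.

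High libraries were Zfp429 in NZO replicate 8 (4.47 CPM), Zfp607 in Cast replicate 3 (7.46 CPM), Zfp28 in AJ replicate 2 (9.89 CPM) and in B6 replicate 2 (10.3 CPM), and Zfp459 in 129 replicate 2 (0.909 CPM) and in NOD replicate 2 (1.16 CPM). Zfp710 in NOD replicate 6 (29.0 CPM), Zfp36 in AJ replicate 4 (154 CPM) and in B6 replicate 7 (163 CPM), Zfp369 in Cast replicate 3 (12.2 CPM) and Zfp568 in Cast replicate 5 (26.8 CPM) were also high.

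Low libraries were Zfp14 in AJ replicate 3 (0.928 CPM), Zfp729b in NZO replicate 2 (6.09 CPM), Zfp260 in NZO replicate 2 (34.5 CPM) and Zfp874b in NOD replicate 6 (9.06 CPM). Of the libraries named in this section, AJ replicates 3 and 4, Cast replicate 3 and NOD replicate 6 are rich in other tissue. The part of that tissue was not tested.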

How the results depend on the processing

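Of 140 counts of called members under 14 alternatives, 128 stayed within 1.5 times. A change required to be at least 1 on the log2 scale left 41 members by the F-test, 5 in 129, 5 in AJ, 6 in B6, 13 in Cast, 4 in NOD, 9 in NZO, 9 in PWK, 8 in WSB and 10 in Cast and PWK. The shares of all genes given above belong to the main setting and are not the background of counts under alternatives. Such counts therefore show only how the calls of members moved. Without libraries rich in other tissue 129 had 16. With whole-count genes only, WSB had 40 of 92 members. Of 743 fold changes of named members under alternatives, 718 kept direction and call, 25 lost the call and 0 reversed; 21 of the 25 fell under the minimum change. Zfp429 in 129 had an adjusted p of 1.0 without WSB replicate 7 and without libraries rich in germ cell transcripts (an alternative chosen after seeing the data), since WSB then had 0 counts. Zfp459 in PWK had 0.109 without libraries rich in other tissue, and Zfp708 in WSB 0.083 without the germ cell libraries. Zfp541 had an F-test adjusted p of 0.105 by DESeq2, 0.538 by limma and 0.0505 with the replicate block.

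Not every same-numbered pair of libraries correlated over 0.1, and the numbers were not taken to pair them. That bar cannot decide the question, since libraries that do belong together may also fall under it. Same-numbered pairs had a median correlation of 0.108 (96 of 186 over 0.1) and differently numbered pairs one of -0.0184 (418 of 1441 over 0.1). As a hint from the data, 21 of 61 libraries matched their own number best. In B6, NOD and NZO, Xist was high in replicates 1 to 4 and low in replicates 5 to 8. Replicate numbers, and the replicate block, thus partly carry the Xist split. Its part in the matches was not tested. With the replicate block 111 members were called by the F-test, 25 in 129, 29 in AJ, 34 in B6, 61 in Cast, 40 in NOD, 61 in NZO, 58 in PWK, 62 in WSB and 72 in Cast and PWK. The shares of all genes given above come from the fit without the block and are not the background of these counts.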
